A study of Mus musculus with 7 samples.

Results

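The sarcoplasmic calcium release and uptake genes described here are Ryr1, Ryr2, Ryr3, Atp2a1, Atp2a2, Atp2a3, Casq1, Casq2, Pln and Sln. They were picked by gene name, with earlier results of these data known, and are 10 of the 50226 gene names with a usable locus in the table. Where a name had several loci, the one with the highest maximum FPKM was used. RNA-Seq was performed on skeletal muscle, interscapular brown fat (BAT), the visceral (VAT) and subcutaneous (SCAT) white fat depots, cortex, kidney and liver. All 7 tissues came from wild-type (wt) mice labelled C57BL/6 (C57BL/6N in the study's text) on the diet labelled NCD at 36 weeks of age, so strain, genotype, diet and age are shared by every group. Each tissue has 1 library, hence no difference between tissues has a replicate check, no p value was computed, and neighbours in an order of tissues cannot be separated by a measured spread. Values are FPKM, fragments scaled to transcript length and to the size of the library, a level per length that can be set side by side between genes of one library. The fragment counts behind them are unknown. All 10 genes had a value in all tissues and passed 1 FPKM in at least 1 tissue, as did 19087 names in all.

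Muscle fibres keep calcium in the sarcoplasmic reticulum. Ryanodine receptors release it into the cytosol to start contraction, calsequestrins bind it inside the store, and SERCA pumps return it at the cost of ATP, restrained by the small membrane peptides phospholamban and sarcolipin. Fast and slow skeletal fibres and heart muscle use different paralogs of these proteins, and non-muscle cells rely on the housekeeping pump SERCA2 and largely on IP3 receptors for release.

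The libraries carried markers of their labels, with some markers of other tissues. The 8 measured markers of fast fibres summed to 36666 FPKM in muscle and to 812 FPKM in BAT, 78.5 in SCAT, 74.3 in VAT and at most 16.1 in cortex, kidney and liver. Tnnt3, which has the same muscle and BAT values as Lsp1, made 70.2 FPKM of the SCAT sum and 29.0 of the VAT sum. Ucp1, the uncoupling protein of brown fat, was at 6552 FPKM in BAT and at most 10.6 elsewhere. Of the 5 brown adipocyte markers, 4 were highest in BAT and 1 in kidney. Only 2 of the 5 were at least 4-fold higher in BAT than in every other tissue. The 5 adipocyte markers summed to 10786.5 FPKM in BAT, 6213.8 in VAT, 3244.5 in SCAT, 438 in muscle and at most 71.4 elsewhere. In SCAT, 6 of 6 lymphocyte markers and 4 of 5 pancreatic acinar markers were at least 4-fold above every other tissue, and in VAT the 3 measured hepatocyte markers were at 295 (Cyp2e1), 30.0 (Ttr) and 17.7 FPKM (Apoa1), against 4606, 3530 and 2521 in liver. Cyp2e1 was also at 331 FPKM in kidney and 68.2 in SCAT, and Ttr at 195 in cortex and 46.3 in kidney, both above VAT. Apoa1 was at 0.358 FPKM in kidney and at most 1.01 outside liver and VAT. In bulk tissue, fewer cells of a type and less RNA per cell cannot be told apart.

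A gene was called enriched in a tissue at 1 FPKM or more there, with log2(FPKM + 0.1) at least 2 above each of the other 6 tissues, that is about 4-fold. This scale understates the difference of low genes. By this rule 4 of the 10 genes (Ryr1, Atp2a1, Casq1 and Casq2) were enriched in skeletal muscle and 2 (Ryr2 and Ryr3) in cortex. The same rule called 3.63% of all 19087 expressed names in muscle (3.38% of the 14898 protein-coding ones) and 8.34% in cortex (8.22% of the protein-coding ones). Skeletal muscle held the highest FPKM of 7 of the 10 genes, cortex of 2 and SCAT of 1, where 23.3% of all expressed names were highest in muscle and 20.7% in cortex. The log2 difference between a gene's highest and second highest tissue had a median of 2.68 over the 10 genes and of 0.68 over the expressed protein-coding names.

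**Figure D1:**
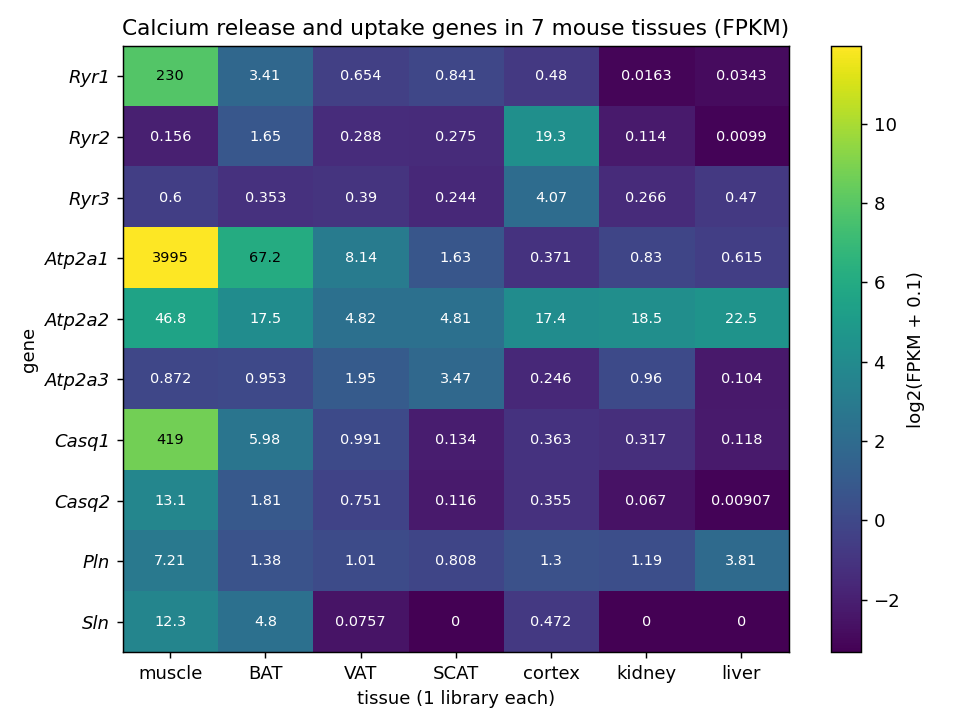
FPKM of the 10 genes (rows) in the 7 tissues (columns), 1 library each, with the colour giving log2(FPKM + 0.1) and the number in each cell the FPKM. Atp2a1, Casq1 and Ryr1 stand out in muscle at 3995, 419 and 230.2 FPKM, Ryr2 and Ryr3 in cortex, and Atp2a2 is the one gene above 4 FPKM in every tissue.

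The promoters of the muscle-enriched genes are shown because these genes shared a tissue pattern, with that of the cortex-enriched Ryr2 for comparison. A RefSeq promoter of build GRCm38.p6 was at hand for 7 of the 10 genes, not for Ryr3, Atp2a2 and Sln. Each sequence gives the 250 bases before the transcription start, 5′ to 3′ on the gene's strand. Capitals mark E-boxes (CANNTG, the palindromic site bound by MyoD-family and other basic helix-loop-helix factors) and the MEF2 consensus, both searched on both strands.
Ryr1, chr7:29125152-29125401, minus strand: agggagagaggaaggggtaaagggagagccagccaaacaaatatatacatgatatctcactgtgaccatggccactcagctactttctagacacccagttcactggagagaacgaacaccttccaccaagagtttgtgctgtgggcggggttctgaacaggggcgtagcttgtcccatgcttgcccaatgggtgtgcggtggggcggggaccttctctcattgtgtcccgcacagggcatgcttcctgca
Atp2a1, chr7:126463074-126463323, minus strand: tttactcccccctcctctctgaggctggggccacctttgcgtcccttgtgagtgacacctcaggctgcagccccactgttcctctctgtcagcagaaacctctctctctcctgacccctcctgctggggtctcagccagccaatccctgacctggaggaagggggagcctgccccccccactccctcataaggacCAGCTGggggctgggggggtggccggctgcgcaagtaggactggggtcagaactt
Casq1, chr1:172219896-172220145, minus strand: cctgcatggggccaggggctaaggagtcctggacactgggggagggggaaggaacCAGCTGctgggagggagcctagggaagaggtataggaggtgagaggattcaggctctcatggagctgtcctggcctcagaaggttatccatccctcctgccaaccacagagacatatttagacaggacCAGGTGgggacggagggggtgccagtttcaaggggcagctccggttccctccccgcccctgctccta
Casq2, chr3:102086165-102086414, plus strand: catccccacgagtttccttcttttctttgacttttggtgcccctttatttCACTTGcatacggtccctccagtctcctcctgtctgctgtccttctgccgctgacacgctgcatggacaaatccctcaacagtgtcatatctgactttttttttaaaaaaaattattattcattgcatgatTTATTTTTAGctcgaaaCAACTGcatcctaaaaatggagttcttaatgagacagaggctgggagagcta
Ryr2, chr13:12106946-12107195, minus strand: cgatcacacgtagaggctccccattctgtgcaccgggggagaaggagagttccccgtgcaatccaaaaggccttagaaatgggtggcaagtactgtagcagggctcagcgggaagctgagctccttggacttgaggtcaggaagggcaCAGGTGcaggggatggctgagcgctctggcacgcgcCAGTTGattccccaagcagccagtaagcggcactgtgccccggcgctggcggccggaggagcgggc

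Of the 7 promoters, 5 held an E-box (Ryr2, Atp2a1, Casq1, Casq2 and Pln), against 66.2% of all 32851 promoters in the RefSeq table. The CAGCTG form was found in 2 of the 7, Atp2a1 and Casq1, against 13.0% of all promoters. The MEF2 consensus, a site of the MEF2 factors of muscle and neurons, occurred in Casq2 alone, 60 to 69 bases before the start, and in 2.92% of all promoters. Its match did not overlap an E-box, and the nearer E-box of Casq2 lay 47 to 52 bases before the start. The window of the muscle-enriched Ryr1 held neither motif, while those of Casq1, Casq2 and the cortex-enriched Ryr2 held 2 E-boxes each. Of all promoters, 31.8% held 2 or more. A match describes letters, not a bound site.

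Among the release channels, each paralog had its own order of tissues. Ryr1, the channel of skeletal muscle (GRCm38 chr7:29003344-29125179, minus strand), was at 230.2 FPKM in muscle, 3.41 in BAT, 0.841 in SCAT, 0.654 in VAT, 0.480 in cortex, 0.0343 in liver and 0.0163 in kidney. Muscle was 67.5-fold above BAT, and BAT in turn stood above the remaining tissues. Ryr2, the channel of heart muscle that is also found in brain (chr13:11553102-12106945, minus strand), was at 19.3 FPKM in cortex, 1.65 in BAT, 0.288 in VAT, 0.275 in SCAT, 0.156 in muscle, 0.114 in kidney and 0.00990 in liver. Cortex was 11.7-fold above BAT, and only kidney and liver were below skeletal muscle. Ryr3 (chr2:112631355-113217096, minus strand), expressed at low level in many tissues including brain, was at 4.07 FPKM in cortex, 0.60 in muscle, 0.470 in liver, 0.390 in VAT, 0.353 in BAT, 0.266 in kidney and 0.244 in SCAT. Outside cortex all its levels were below 1 FPKM. The end of Ryr3 overlaps Aven on the other strand, whose locus was at 8.0 FPKM in muscle, 6.22 in liver, 5.94 in BAT, 4.37 in kidney and at most 1.94 elsewhere, and whether its reads entered the Ryr3 value was not tested. Ryr3 was no longer called enriched with a pseudocount of 1, a minimum of 5 FPKM or an 8-fold rule.

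The make-up of the ryanodine receptor FPKM differed from tissue to tissue. In muscle 99.7% of the summed 231 FPKM was Ryr1, with 0.0676% Ryr2 and 0.260% Ryr3. In cortex 81.0% of 23.9 FPKM was Ryr2, 17.0% Ryr3 and 2.01% Ryr1. BAT, with a sum of 5.42 FPKM, held 62.9% Ryr1 and 30.5% Ryr2. In liver and kidney the sums were 0.515 and 0.396 FPKM, so that their shares (91.4% and 67.1% Ryr3) rest on very low levels, in the tissues where Aven was many times above Ryr3.

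Of the storage proteins, Casq1, the calsequestrin of fast fibres (chr1:172209894-172219868, minus strand), was at 419 FPKM in muscle, 5.98 in BAT, 0.991 in VAT, 0.363 in cortex, 0.317 in kidney, 0.134 in SCAT and 0.118 in liver. With a log2 difference of 6.11 between muscle and BAT, or 70.0-fold, it had the widest gap of the 10 genes. Casq2, the calsequestrin of heart and slow fibres (chr3:102086415-102146514, plus strand), was at 13.1 FPKM in muscle, 1.81 in BAT, 0.751 in VAT, 0.355 in cortex, 0.116 in SCAT, 0.0670 in kidney and 0.00907 in liver. It too was enriched in muscle, but by 7.22-fold over BAT. Casq1 thus made 97.0% of the calsequestrin FPKM in muscle and 76.8% in BAT. Casq2 has 3 loci in the table. The one with the highest FPKM, used here, was read as lying on the minus strand, opposite the annotated gene, while the locus on the annotated strand gave 11.0 FPKM in muscle and 1.77 in BAT. With the 3 loci summed, the Casq1 share in BAT was 50.5%.

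Of the calcium pumps, Atp2a1 (SERCA1, the pump of fast skeletal fibres, chr7:126445858-126463108, minus strand) had the highest level of all members. It was at 3995 FPKM in muscle, 67.2 in BAT, 8.14 in VAT, 1.63 in SCAT, 0.830 in kidney, 0.615 in liver and 0.371 in cortex. Muscle was 59.5-fold above BAT, and the 3 fat depots came next after muscle. Atp2a2 (SERCA2, whose splice forms serve heart and slow muscle and the endoplasmic reticulum of other cells, chr5:122453513-122502225, minus strand) was at 46.8 FPKM in muscle, 22.5 in liver, 18.5 in kidney, 17.5 in BAT, 17.4 in cortex and 4.82 and 4.81 in VAT and SCAT. Its highest tissue was only 2.08-fold above the second, and its splice forms are not separated in values per gene. Atp2a3 (SERCA3, known from blood and epithelial cells, chr11:72961169-72993044, plus strand) was at 3.47 FPKM in SCAT, 1.95 in VAT, 0.960 in kidney, 0.953 in BAT, 0.872 in muscle, 0.246 in cortex and 0.104 in liver. It was the one member with its highest value in white fat, 1.78-fold above the other white depot. A further Atp2a3 locus, read as lying on the opposite strand, was at 2.28 FPKM in SCAT, 0.763 in VAT and at most 0.386 elsewhere.

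SCAT is also the library with lymphocyte and pancreatic markers. The 6 lymphocyte markers summed to 246 FPKM in SCAT, 15.4 in VAT, 7.80 in liver, 6.89 in BAT, 5.58 in kidney, 3.39 in muscle and 1.43 in cortex. None of the 6 was at 0 in SCAT, where Ptprc, the pan-leukocyte phosphatase, was at 125 FPKM and the B cell marker Ms4a1 at 50.6. The 5 pancreatic acinar markers summed to 107 FPKM in SCAT and at most 8.82 elsewhere, and the 4 platelet markers to 31.1 in VAT, 21.4 in BAT, 18.2 in SCAT, 16.6 in muscle and at most 4.23 elsewhere. Their part in the Atp2a3 level was not tested.

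In muscle 98.8% of the summed SERCA FPKM of 4042 was Atp2a1, and Atp2a1 exceeded Atp2a2 85.3-fold. In BAT the same ratio was 3.84, so Atp2a1 made 78.5% of 85.6 FPKM. In cortex, kidney and liver the order was turned, with Atp2a2 at 96.6%, 91.2% and 96.9% of sums between 18.0 and 23.3 FPKM. VAT had 54.6% Atp2a1 and 32.3% Atp2a2, while SCAT had 48.5% Atp2a2, 35.0% Atp2a3 and 16.5% Atp2a1. The longest GENCODE coding sequences of the 7 pairs of paralogs have identical runs of at most 53 bases (Atp2a1 and Atp2a3), shorter than the 101 bases of a read. Sequence outside the coding part was not compared, and the assignment of reads between paralogs was not tested.

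**Figure D2:**
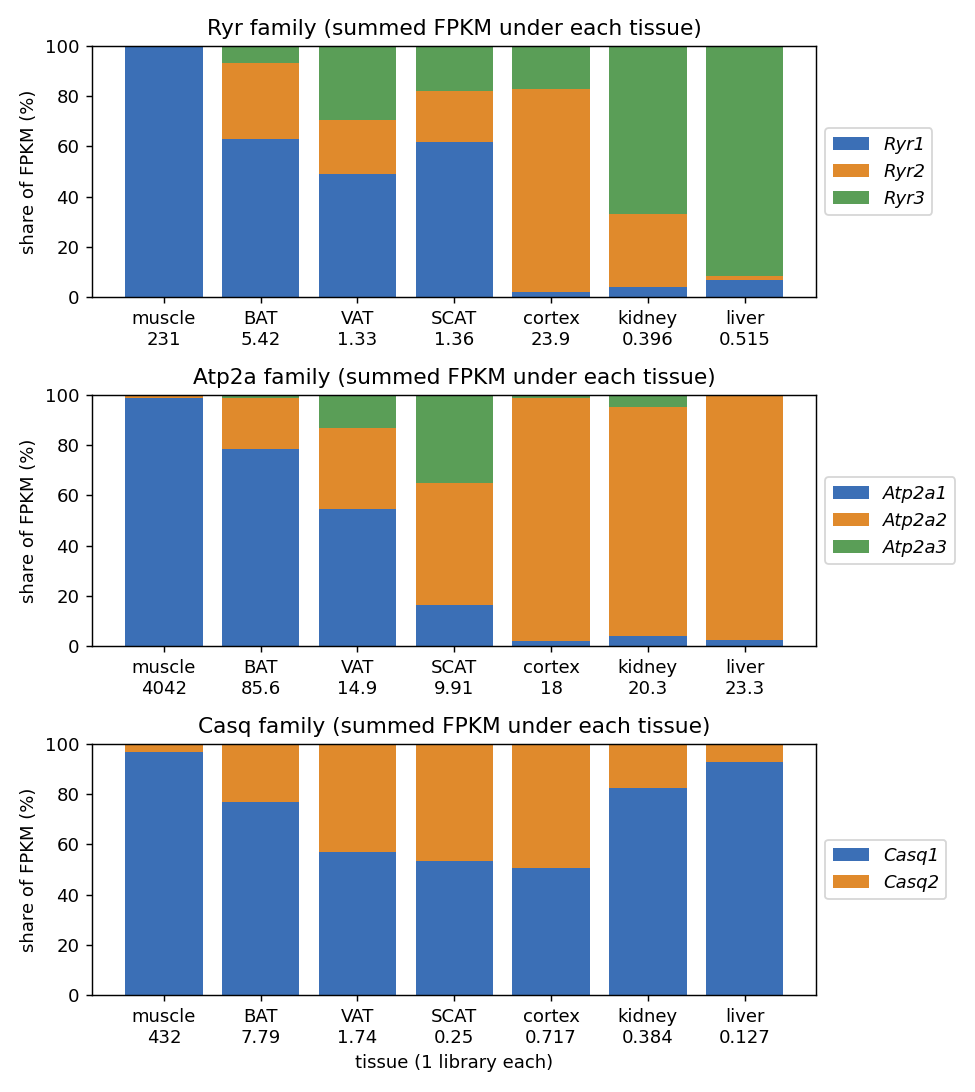
Share of each paralog in the summed FPKM of the Ryr, Atp2a and Casq families (bars, in %) in each tissue, with the summed FPKM printed under each tissue. Muscle consists almost wholly of Ryr1 (99.7%), Atp2a1 (98.8%) and Casq1 (97.0%), cortex is mostly Ryr2 and Atp2a2, and shares rest on sums below 1 FPKM in kidney and liver (Ryr and Casq) and in cortex and SCAT (Casq).

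Both pump inhibitors were highest in muscle, below Atp2a1 and Atp2a2 there and above Atp2a3. Sln (sarcolipin, chr9:53850164-53854560, plus strand), which restrains SERCA and makes it spend ATP as heat, was at 12.3 FPKM in muscle, 4.80 in BAT, 0.472 in cortex and 0.0757 in VAT, and was listed at 0 in SCAT, kidney and liver. Muscle was 2.56-fold above BAT, so Sln missed the 4-fold rule. Here too the locus with the highest FPKM was read as lying opposite the annotated strand. The locus on the annotated strand gave 1.43 FPKM in muscle, 0.270 in BAT and 0.0735 in cortex and was listed at 0 elsewhere. With it, the log2 difference between muscle and BAT was 2.05 instead of 1.34, and Sln counted as enriched in muscle. Which locus reflects the mRNA was not tested.

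Pln (phospholamban, the inhibitor known from heart and slow muscle, chr10:53337667-53345987, plus strand) was at 7.21 FPKM in muscle, 3.81 in liver, 1.38 in BAT, 1.30 in cortex, 1.19 in kidney, 1.01 in VAT and 0.808 in SCAT. It was found in every tissue, with muscle 1.89-fold above liver. Pln lies within Cep85l, a gene on the other strand whose locus there had 16.8 FPKM in muscle, 6.84 in liver and 3.67 in BAT, the same 3 tissues on top. A further Cep85l locus on the strand of Pln was highest in liver, at 3.08 FPKM, with 2.29 in muscle. Whether reads of Cep85l entered the Pln value was not tested.

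Relative to the summed SERCA FPKM of the same library, Sln stood at 0.304% in muscle and 5.61% in BAT, and Pln at 0.178% in muscle and 16.4% in liver. The Sln locus on the annotated strand gave 0.0355% and 0.315%. Mrln, myoregulin, another SERCA-inhibiting micropeptide of skeletal muscle, was at 99.4 FPKM in muscle and 2.58 in BAT. In muscle it was 8.09-fold above Sln, or 69.3-fold above the locus on the annotated strand, and its FPKM equalled 2.46% of the SERCA sum there and 3.02% in BAT. These are ratios of RNA levels.

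Beside the loci named above for Ryr3, Pln, Atp2a3, Casq2 and Sln, signal lay on the strand opposite to the 3 most abundant members. The loci across from Atp2a1 (named Rabep2), Casq1 (Gm17224) and Ryr1 (Gm26604), chosen after their values were seen, were at 1514, 141 and 49.3 FPKM in muscle. That is 37.9%, 33.7% and 21.4% of the member, and in BAT 39.3%, 31.4% and 16.4%. Strand was inferred from how the table orders its loci, a reading under which 74.6% of the 58936 loci with 1 annotated name lie on the annotated strand. The libraries were made with a directional kit, but the strand setting of the counting is not given in the sources used here.

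BAT was the second highest tissue of 6 members, 5 of them highest in muscle. The share of all expressed names with BAT second was not computed, so this count has no background beside it. Expressed as a percentage of the muscle FPKM, BAT held 1.43% for Casq1, 1.48% for Ryr1 and 1.68% for Atp2a1. It held 13.8% for Casq2, 19.1% for Pln, 37.3% for Atp2a2 and 39.1% for Sln, or 18.8% for the Sln locus on the annotated strand.

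The fibre markers of the same libraries were also unequal. The 8 fast-fibre markers had 1.02% to 4.27% (median 1.66%) of their muscle FPKM in BAT, the 6 shared striated markers 1.68% to 5.97% (median 2.64%) and the 8 slow-fibre markers 15.3% to 62.5% (median 24.1%). The 2 highest slow percentages belong to genes found in every tissue, Myh7b (62.5%) at 6.14 FPKM or more and Tpm3 (43.9%) at 20.5 or more. Of the 8 slow markers, 5 were enriched in muscle. All 8 slow markers were highest in muscle and second in BAT, and Myl2, the slow myosin light chain, was at 335 FPKM in muscle and 82.7 in BAT, but at most 0.297 elsewhere. No fast, slow or shared marker was at 0 in BAT. Over the 513 protein-coding names of at least 10 FPKM in muscle and 4-fold above the 5 tissues other than BAT, the median was 6.75%, with quartiles of 2.56% and 21.5%. Names that share a merged locus have the same value, and Rabep2, opposite Atp2a1, is among them. So are Ryr1, Atp2a1, Casq1, Casq2, Sln and the 8 fast markers. Pln, below 10 FPKM in muscle, and Atp2a2, less than 4-fold above liver, did not meet the rule. Casq1, Ryr1 and Atp2a1 were below the lower quartile. Sln was above the upper one with the locus used here and below it with the locus on the annotated strand. With BAT left out of the other tissues, Sln also passed the 4-fold rule, giving 5 enriched members. The part of muscle tissue in the BAT values was not tested.

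**Figure D3:**
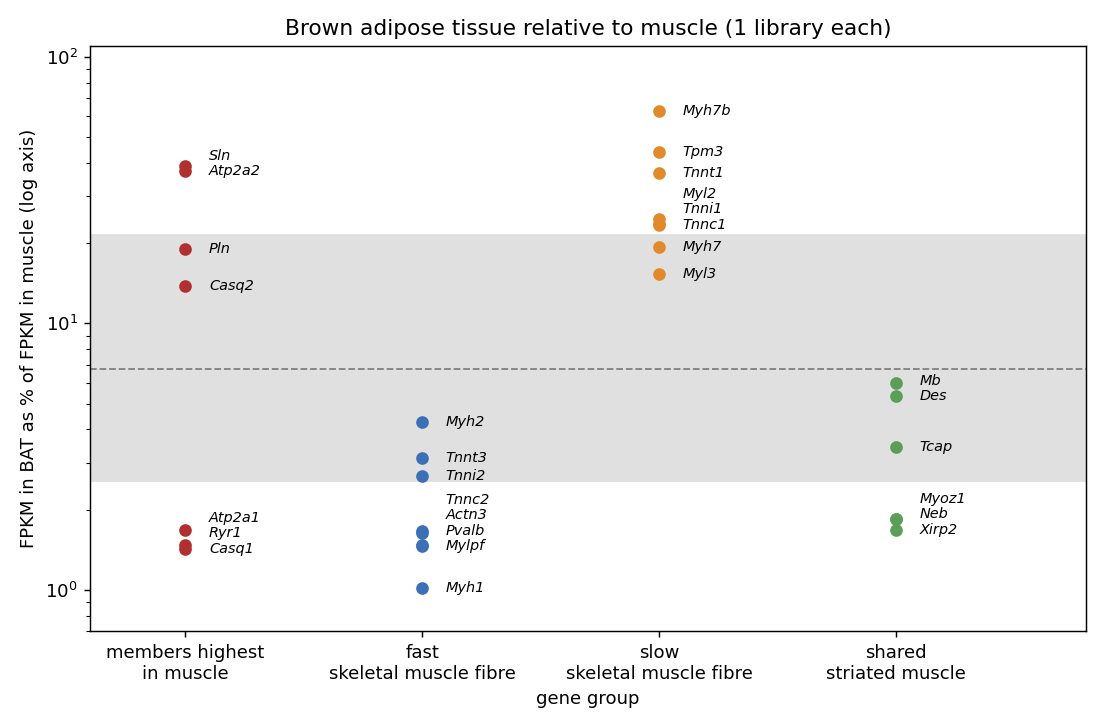
FPKM in BAT as a percentage of FPKM in muscle (log axis) for the 7 members highest in muscle and for the markers of fast fibres, slow fibres and both. The grey band and dashed line give the quartiles (2.56% and 21.5%) and median (6.75%) of 513 names high in muscle, with Casq1, Ryr1 and Atp2a1 at 1.43% to 1.68% among the fast markers and Casq2, Pln, Atp2a2 and Sln at 13.8% to 39.1% (Sln is drawn for the locus used here). Pln and Atp2a2 do not meet the rule that chose the 513 names, while the other members drawn and the fast markers are among these names.

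Ryr2 went the other way, with 1.65 FPKM in BAT against 0.156 in muscle. Of the cardiac markers in BAT, Nppa, Nppb and Myl7 were listed at 0, Tnnt2 was at 0.00389, Myh6 at 0.0884, Tnni3 at 0.141, Actc1 at 0.472 and Myl4 at 3.89 FPKM. The 8 cardiac markers summed to 4.59 FPKM against 54.7 in muscle and between 2.76 and 7.41 in the other tissues. Of the 6 neuronal markers, 4 (Snap25, Rbfox3, Slc17a7 and Syt1) were listed at 0 in BAT, and Map2 was at 2.12 FPKM there, against 1.28 in muscle and 2.2 in kidney. In cortex the 6 summed to 748 FPKM, all enriched there. The part of such cells in the Ryr2 level of BAT was not tested.

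The partners of the release channel were enriched in muscle in 10 of 19 measured genes and in cortex in 3, beside 3.63% and 8.34% of all expressed names. The list holds the voltage sensor, the proteins that join plasma membrane and store, and regulators of the channel, and its median log2 difference between muscle and the highest other tissue was 2.10, against -1.14 over all expressed names. In muscle its most abundant genes were Trdn, Tmem38a, Cacna1s and Cacna2d1. Trdn, triadin, which anchors Casq to the ryanodine receptor, was at 817 FPKM in muscle, 31.9 in BAT and at most 5.06 elsewhere. Cacna1s, the voltage sensor that opens Ryr1, was at 236.7 FPKM in muscle, close to Ryr1 at 230.2, with 5.35 in BAT and at most 0.384 in the other tissues. Tmem38a, a potassium channel of the store, was at 325 FPKM in muscle and 12.4 in cortex. Cacna2d1, an auxiliary subunit of voltage-gated calcium channels, was at 209 FPKM in muscle and 66.2 in cortex and was not enriched.

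Cortex held the highest level of 5 genes of that list. Fkbp1a, which binds and steadies Ryr1, was at 48.8 FPKM in cortex and 12.2 in muscle, and Homer1, a scaffold of synapses and triads, at 39.9 and 28.5. Fkbp1b, the partner of Ryr2, was at 5.81 FPKM in cortex and below 1 in the other tissues, with cortex on top as for Ryr2. S100a1, a calcium sensor of the channel, was the one gene highest in BAT, at 192 FPKM against 70.7 in muscle. Jph3 was not analysed here.

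Of the luminal and uptake regulators, 5 of 16 measured genes (Pvalb, Srl, Hrc, Mrln and Ppp1r3a) were enriched in muscle and none in cortex, beside the same 3.63% and 8.34% of all expressed names, with a median log2 difference of -0.85. Pvalb, the cytosolic calcium buffer of fast fibres, was at 4675 FPKM in muscle and 69.1 in BAT, a level like that of Atp2a1. Srl, sarcalumenin, was at 490 FPKM in muscle and 18.0 in BAT, and Hrc, the histidine-rich calcium binding protein of the store, at 398 and 6.76. Other genes of the list were highest outside muscle. Of the folding proteins of the endoplasmic reticulum, Calr was at 193 FPKM in liver and 63.3 in muscle, Hspa5 at 166 and 42.4, and Pdia3 at 107 and 22.8. Canx was highest in kidney, at 114 FPKM, against 37.7 in muscle. Strit1 and Arln were not analysed here.

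**Figure D4:**
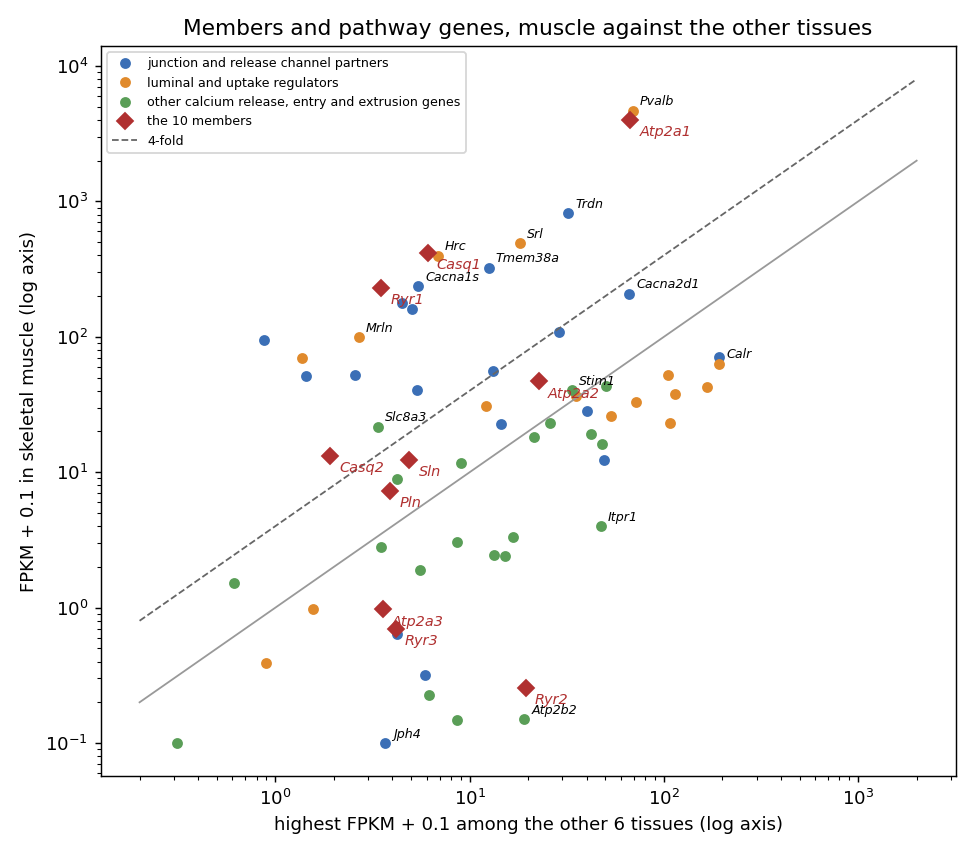
FPKM + 0.1 in skeletal muscle against the highest FPKM + 0.1 of the other 6 tissues (both log axes) for the 10 members (diamonds) and the genes of 3 pathway lists (circles), with lines at equal level and at 4-fold. Ryr1, Casq1 and Atp2a1 lie far above the 4-fold line beside Cacna1s, Hrc and Pvalb, Casq2 lies just above it, Atp2a2, Sln and Pln lie between the lines, and Ryr2, Ryr3 and Atp2a3 lie below equality.

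The names whose profile was most like that of a member were found by Pearson's r of log2(FPKM + 0.1) over the 7 tissues, among 10665 names of at least 5 FPKM in any tissue. These r describe 7 points that all genes share and are blind to the size of a difference. For Atp2a1 they were Myom1 (r = 0.998), Gtpbp4 (0.998) and Mylpf (0.997), for Casq1 Aldoart1 (0.997), Sh3bgr (0.995) and Abra (0.994), and for Ryr1 Ptp4a3 (0.993), Lsm14a (0.992) and Murc (0.991). Gtpbp4 shows the limit of the measure, since it spanned only 12.2 to 38.5 FPKM while Myom1, of the sarcomere M-band, spanned 0.108 to 395. For Casq2 they were Mlf1 (0.990), Gm13601 (0.984) and Pnmt (0.983), and for Sln Mus81 (0.994), Tnnt1 (0.989) and Tfdp1 (0.988). Tnnt1, troponin T of slow fibres, was at 102 FPKM in muscle, 37.3 in BAT and at most 1.37 elsewhere, and like Sln it missed the 4-fold rule because of BAT.

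For Ryr2 the closest were Chn1os1 (0.991), Gm11973 (0.991) and Gm29273 (0.984), and for Ryr3 Gfy (0.987), Caly (0.986) and Lrrc4b (0.984). Atp2a2 was matched by Tmem63b (0.993), Slc35b2 (0.992) and Ltn1 (0.991), and Pln by Gorasp2 (0.977), Ap3m1 (0.973) and Arfgap2 (0.972), all of them found in every tissue. Atp2a3 had the fewest close profiles, with 3 names at r of 0.95 or more (Ccl8, 0.973, Gulp1, 0.966, and Mapre1, 0.957), against 235 for Ryr3. Ccl8, a chemokine, was at 43.2 FPKM in SCAT and 15.2 in VAT.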

How the data were processed

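Total RNA depleted of rRNA was sequenced with 2 x 101 bases, and 1 library per tissue was grouped by its tissue label. Per the labels' processing notes the authors used Bowtie2 2.2.9, STAR 2.6.0c, Cufflinks 2.2.1 and Cuffdiff on GRCm38 (mm10). The deposited values are FPKM for 94339 loci in 21 pairwise comparisons, and a tissue's FPKM was identical in each. Columns holding the authors' own comparisons (fold changes, test statistics, p and q values) were not used. Without fragment counts, depth and precision are unknown. The 151 loci with status FAIL were left out, and zeros with status LOWDATA (83 loci) were taken as missing. Names were split at commas, and of several loci the one with the highest maximum was used. Genes were annotated with GENCODE vM21, promoters with RefSeq. The 10 genes, the gene lists and the rules were chosen with earlier results of these data known. Named from each list are the 4 genes highest in muscle and up to 4 highest elsewhere with at least 5 FPKM there, and markers that bear on a member. Ppp1r3a, Atp2b2, Slc8a2, Tnnt3, Lsp1, Myh7b, Tpm3, list genes without a value and genes opposite members were named after their values were seen. In addition, 1 gene of a list was left out and is not reported here. The enrichment rule was tested on simulated data. Python 3.11.15, pandas 2.3.3, NumPy 2.4.6, Biopython 1.88 and matplotlib 3.10.9 were used.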

Additional observations from a re-analysis of the deposited data

How the results depend on the processing

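No paired analysis was possible because the 7 tissues have 1 library each, and no replicate could be left out. Alternatives changed the pseudocount (0.01 and 1), the minimum, the fold, the scaling, the treatment of several, failed or missing loci and the place of BAT, and loci on the annotated strand only were added after the data were seen. Of 63 counts of enriched or highest genes, 58 stayed within 1.5 times. The members enriched in muscle numbered between 3 (8-fold, without Casq2) and 6 (2-fold). The 2 members enriched in cortex became 1 with a pseudocount of 1, a minimum of 5 FPKM or 8-fold, since Ryr3 was lost. Its log2 difference was 1.66 with a pseudocount of 1. The 1 muscle-enriched gene among other calcium genes became 3 at 2-fold and 0 at 8-fold. Of 60 log2 differences of members, 58 stayed on their side of 2 and 0 changed sign, the exceptions being Ryr3 above and Sln, which passed at 2.05 on the annotated strand. That locus also moved the other Sln ratios by over 1.5 times (18.8% in BAT of muscle, 69.3-fold below Mrln, 0.0355% and 0.315% of the SERCA sum). Of 30 paralog shares, 29 stayed within 1.5 times, while Casq1 in BAT fell from 76.8% to 50.5% when the 3 loci of Casq2 were summed. Median ratio scaling shifted log2 values by -0.38 in muscle, -0.27 in BAT, 0.42 in VAT, 0.49 in SCAT, 0.19 in cortex, -0.04 in kidney and -0.09 in liver. The unknown depth limits what can be said of members below 1 FPKM.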

Other observations

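Among 21 measured genes of other calcium release, entry and extrusion, 1 was enriched in muscle (Slc8a3, a sodium-calcium exchanger, 21.5 FPKM against 3.27 in cortex) and 2 in cortex (Atp2b2, a plasma membrane calcium pump, 19.0 FPKM, and Slc8a2, 8.48 FPKM), where the same rule called 3.63% and 8.34% of all expressed names. The median log2 difference between muscle and the highest other tissue was -1.50. Itpr1, the IP3 receptor of many non-muscle cells, was at 47.2 FPKM in kidney, 42.3 in cortex, 24.3 in BAT, 13.2 in liver, 9.05 in SCAT, 7.72 in VAT and 3.90 in muscle, its lowest tissue. Itpr1 was 2.19-fold above Ryr2 in cortex and 414-fold above it in kidney, where the ratio rests on a Ryr2 level of only 0.114 FPKM. Atp2c1, the pump of the Golgi, was at 50.4 FPKM in cortex, 50.3 in kidney and 43.0 in muscle, and lay above Atp2a2 in every tissue but muscle, where Atp2a2 was at 46.8 FPKM. Atp2b1 was highest in cortex, at 47.9 FPKM, and Tmco1, a calcium leak channel of the endoplasmic reticulum, in BAT, at 42.1. Of the genes highest in muscle, Stim1, the calcium sensor of the store, was at 40.2 FPKM there and 33.4 in BAT. Stim2 was at 26.0 FPKM in cortex and 23.2 in muscle. Slc8a1 was not analysed here.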
